A study of Mus musculus with 8 samples.

Results

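Cyp4 enzymes of the cytochrome P450 superfamily were followed in whole livers of mice with and without hepatocytic thioredoxin reductase 1 (Txnrd1), on Affymetrix whole-genome mouse arrays. The family was represented by 8 genes, Cyp4a10, Cyp4a12a, Cyp4a12b, Cyp4a14, Cyp4f13, Cyp4f14, Cyp4f15 and Cyp4v3, and every probe set annotated to any of them was taken, which gave 8 of the 45037 probe sets that are not array controls. Of the 8 genes, 7 had a probe set and 6 had one of their own. Cyp4a10 was read only by a probe set that it shares with Cyp4a31, and Cyp4a12b had no probe set annotated to it, so the Cyp4a12a probe set stands alone for that pair and whether it also reads Cyp4a12b was not tested. Cyp4v3 was read by 2 probe sets.

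The control group was 4 livers labelled txnrd1 cond/+ albCre0, which carry 1 conditional-null and 1 wild-type txnrd1 allele and no Cre transgene. The other group was 4 livers labelled txnrd1 cond/- albCre1, with 1 conditional-null allele, 1 null allele and 1 copy of a Cre transgene driven by the albumin promoter, which is active in hepatocytes. These are called txnrd1-/- livers below, although cells other than hepatocytes keep the conditional allele, and loss of Txnrd1 cannot be told apart from presence of Cre because no control carries the transgene. All animals were young adult males that had lived alone for 10 days under 14 h of light and 10 h of dark and were killed in the early afternoon. The labels number the animals 70, 71, 80 and 82 (txnrd1 cond/+) and 69, 72, 73 and 81 (txnrd1-/-), and values are given in that order throughout.

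Cyp4 enzymes lie in the endoplasmic reticulum and hydroxylate fatty acids and their signalling derivatives at or near the far, omega end of the chain, after which alcohol and aldehyde dehydrogenases turn the product into a dicarboxylic acid that peroxisomes shorten. In mouse liver, Cyp4a10 and Cyp4a14 are textbook targets of PPARα, the nuclear receptor for fatty acids and fibrate drugs. Cyp4a12a is instead a male-biased enzyme that hydroxylates arachidonic acid, and Cyp4f enzymes also act on leukotrienes and related eicosanoids.

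Each deposited value is a ratio of a probe set's signal to a value close to the middle of its own signals over the 8 arrays, so 1 is the middle of that probe set and levels cannot be compared between genes. Array medians lay between 0.997 and 0.999. The tissue label could therefore not be checked by level. Across the animals the median log2 ratio of 8 hepatocyte markers stayed between -0.03 and 0.09, and that of 5 kidney tubule markers between -0.10 and 0.20. The 3 Txnrd1 probe sets did not move together, with ratios of 0.41 to 0.90 in txnrd1 cond/+ and 1.10 to 2.00 in txnrd1-/- livers for the first, 0.993 to 1.51 and 0.598 to 0.997 for the second and 1.03 to 1.33 and 0.755 to 0.965 for the third, and their position relative to the deleted part was not stated in any source used. Cbr3, a carbonyl reductase that rises when Nrf2 is active, separated the labelled genotypes fully, at 0.0595 to 0.0629 against 1.94 to 7.12. The study had picked Cbr3 out on these same arrays, so this is no independent check of the labels.

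No Cyp4 member passed the test of genotype, and the widest differences lay between animals of the same genotype, above all for Cyp4a12a. A probe set was called when its limma p, adjusted by Benjamini-Hochberg over all probe sets, was at most 0.05 and its change at least 1.5-fold. Of the 8 member probe sets 0 were called higher and 0 lower, against 12 of 45037 probe sets overall (0.0266%, all higher in txnrd1-/- livers). At the study's limits of fold and p, an unadjusted p of at most 0.05 with 1.5-fold, 0 of 8 members passed against 253 of all probe sets (0.562%). Here the p came from limma and the study's filter on low signal could not be applied, so this count is not comparable with its own. With the unadjusted p alone 0 of 8 passed against 1.82% overall. The smallest unadjusted p among the members in limma was 0.416, the adjusted p was 1.00 for each, and the smallest p in the exact permutation test over the 70 ways of dividing the 8 animals (2-sided, with 0.0286 the smallest it can give) was 0.514. Values of the genotypes overlapped for all 8 probe sets. The share of all probe sets that overlap was not counted, so this is no result about the members. The log2 fold change of txnrd1-/- over txnrd1 cond/+ had a median of 0.03 over the members and 0.00 over all probe sets, and its standard error had a median of 0.26 over the members and 0.16 over all probe sets.

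**Figure D1:**
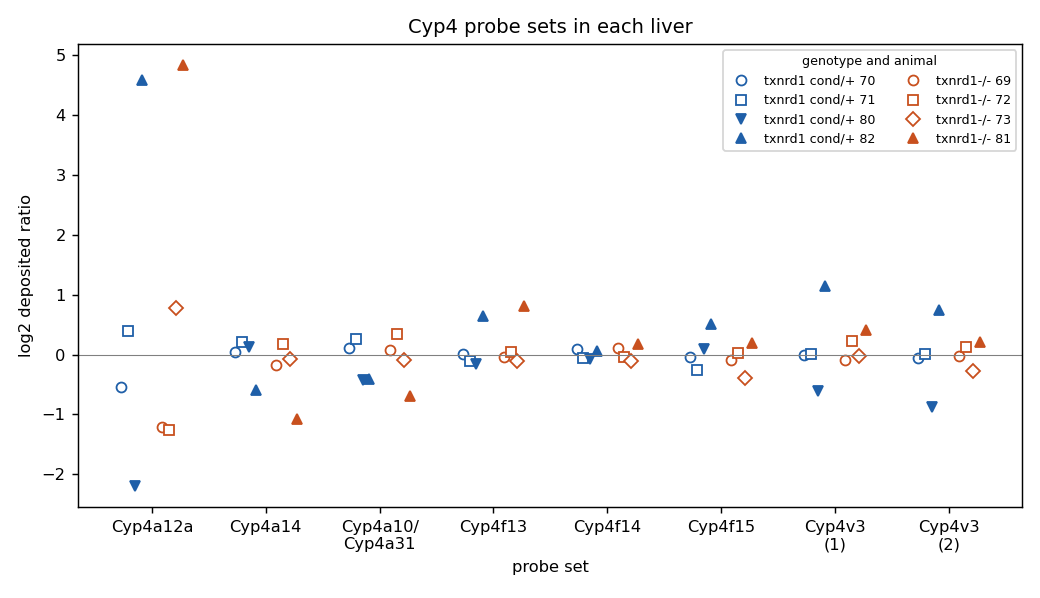
The log2 deposited ratio (vertical axis, no unit) of each of the 8 Cyp4 probe sets (horizontal axis) is shown for each liver, blue for txnrd1 cond/+ and orange for txnrd1-/-, with filled symbols for animals 80, 81 and 82. Cyp4a12a spans a 131-fold range, from 0.218 in animal 80 to 28.5 in animal 81, while Cyp4f14 spans 1.21-fold.

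Cyp4a12a was very high in 1 liver of each genotype and low or middling in the other 6. Its ratios were 0.691, 1.31, 0.218 and 24.0 in txnrd1 cond/+ livers and 0.432, 0.418, 1.72 and 28.5 in txnrd1-/- livers (probe set 1424352_at). Animal 82 was 18.4-fold above the next txnrd1 cond/+ liver and animal 81 was 16.5-fold above the next txnrd1-/- liver, and the lower of these values was 13.9-fold above the highest of the other 6. Among those 6, animal 80 was the lowest and animal 73 the highest. By the standard deviation of its log2 ratios over the 8 arrays Cyp4a12a ranked 5 of 45037 probe sets. No other probe set that was highest in animals 81 and 82 stood as far above the other 6 livers. The next in that order was Elovl3, a male-biased fatty acid elongase, at 8.32-fold.

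The means of Cyp4a12a, 6.55 ± 11.6 in txnrd1 cond/+ and 7.77 ± 13.8 in txnrd1-/- livers (SD, n = 4 each), are set by these 2 animals. The fold change on the log2 scale was 0.23 ± 1.59 (SE), with a 95% interval from 0.0995-fold to 13.8-fold, an interval that holds a 10-fold rise as well as a 10-fold fall. Its limma adjusted p was 1.00, and the exact permutation p was 0.914. Leaving out animal 81 gave -1.12 and leaving out animal 82 gave 1.57. Without both animals it was 0.22 ± 0.74 (SE), an alternative chosen after seeing these values.

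Cyp4a14 went the other way in the same animals. Its ratios were 1.03, 1.16, 1.09 and 0.662 in txnrd1 cond/+ livers and 0.882, 1.13, 0.954 and 0.476 in txnrd1-/- livers (1423257_at), so animals 81 and 82 were the lowest of the 8. The means were 0.986 ± 0.222 and 0.861 ± 0.277 (SD, n = 4 each). The log2 fold change was -0.23 ± 0.27 (SE), the largest of the members in size, with a 95% interval from 0.557-fold to 1.30-fold and a limma adjusted p of 1.00.

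The probe set shared by Cyp4a10 and Cyp4a31 had ratios of 1.08, 1.20, 0.749 and 0.750 in txnrd1 cond/+ livers and 1.05, 1.27, 0.934 and 0.621 in txnrd1-/- livers (1424853_s_at). Animal 81 was again the lowest, and animals 80 and 82 lay just above it. All animals numbered 80 to 82 thus lay below all those numbered 69 to 73 (0.934 to 1.27). The means were 0.945 ± 0.230 and 0.969 ± 0.270 (SD, n = 4 each), and the log2 fold change was 0.02 ± 0.24 (SE; 95% interval 0.701-fold to 1.47-fold). Which of the genes supplied this signal cannot be told apart from this probe set. Cyp4a31, a close relative that is no member, had 2 probe sets of its own, with ratios of 1.52, 0.797, 1.63 and 0.280 against 1.19, 0.483, 1.21 and 0.519 for the first and 1.36, 1.27, 1.05 and 0.555 against 1.16, 0.949, 0.755 and 0.482 for the second. Animal 82 was the lowest in the first and animal 81 in the second, and neither passed the test (log2 fold change -0.15 ± 0.55 and -0.33 ± 0.33, SE; limma adjusted p 1.00).

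**Figure D2:**
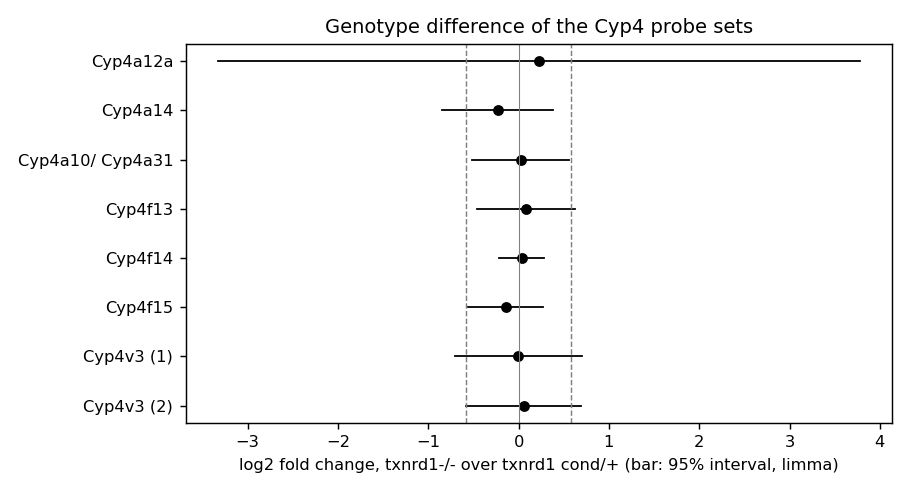
The log2 fold change of txnrd1-/- over txnrd1 cond/+ livers (horizontal axis) is given for each Cyp4 probe set, with points for the limma estimate and bars for its 95% interval from 4 animals per genotype, a solid line at no change and dashed lines at 1.5-fold. All 8 intervals cross 0, the Cyp4a12a interval runs from -3.33 to 3.78 and the Cyp4f14 interval from -0.22 to 0.28.

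The Cyp4a genes lie side by side on chromosome 4, and the swing of Cyp4a12a was not shared by its measured neighbours. In RefSeq's order the measured genes are Cmpk1, Stil, Tal1, Pdzk1ip1 and Cyp4x1 on one side, then Cyp4a12a, Cyp4a14 and Cyp4a31, then Cyp4b1, Efcab14, Tex38, Atpaf1 and Mob3c on the other. Over the 8 animals the ratios of those 10 flanking genes lay between 0.407 (Stil, animal 82) and 1.66 (Tex38, animal 72). Cyp4b1, an extrahepatic hydroxylase next to the cluster, was highest in animals 81 and 82, at 1.27 and 1.23, but ranged only down to 0.752.

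**Figure D3:**
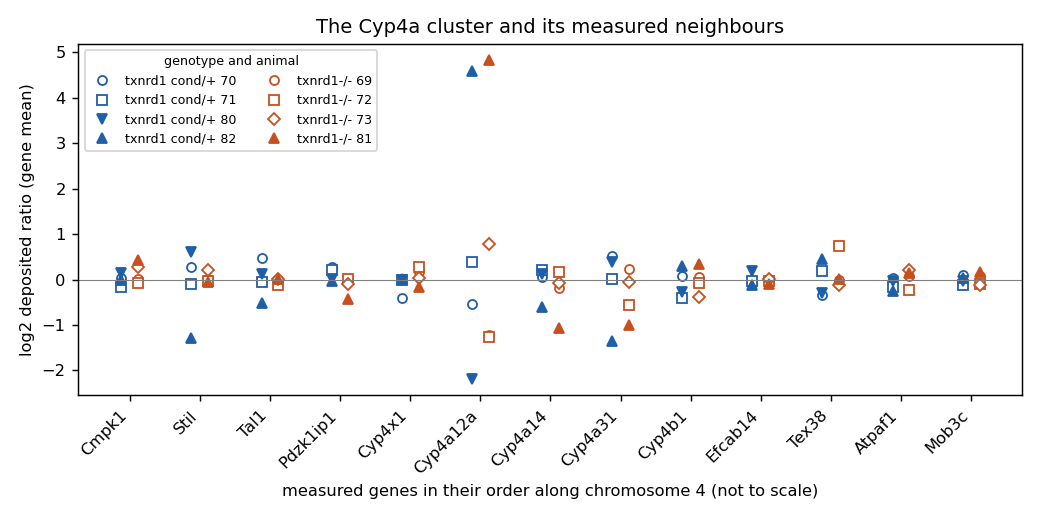
The log2 deposited ratio (vertical axis) of each measured gene in and beside the Cyp4a cluster is plotted per liver, in gene order along chromosome 4 (horizontal axis, not to scale), blue for txnrd1 cond/+ and orange for txnrd1-/-. The flanking genes stay between 0.407 and 1.66 as ratios, whereas Cyp4a12a reaches 24.0 and 28.5 in animals 82 and 81.

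The Cyp4f genes and Cyp4v3 varied over a much smaller range. Promoter sequence was to hand for 4 of these members, and it is shown because 3 of them were highest in animals 81 and 82 while Cyp4f14 hardly varied. Each line is the 150 bases before the annotated start in RefSeq's mouse genome (GRCm38.p6), 5′ to 3′ on the gene's own strand. Capitals mark ATTGG, the reverse complement of the CCAAT motif.
Cyp4f13, chr17:32947362-32947511, minus strand: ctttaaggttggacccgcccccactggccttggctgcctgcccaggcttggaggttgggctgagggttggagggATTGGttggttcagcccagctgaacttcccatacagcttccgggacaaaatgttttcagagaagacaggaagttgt
Cyp4f14, chr17:32917357-32917506, minus strand, the first of 4 listed starts: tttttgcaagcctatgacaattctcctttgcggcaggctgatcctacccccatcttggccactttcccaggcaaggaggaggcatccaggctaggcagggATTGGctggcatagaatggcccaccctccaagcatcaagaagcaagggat
Cyp4f15, chr17:32685509-32685658, plus strand: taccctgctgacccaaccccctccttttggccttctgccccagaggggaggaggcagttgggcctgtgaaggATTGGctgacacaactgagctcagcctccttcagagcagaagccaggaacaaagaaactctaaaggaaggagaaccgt
Cyp4v3, chr8:45333164-45333313, minus strand: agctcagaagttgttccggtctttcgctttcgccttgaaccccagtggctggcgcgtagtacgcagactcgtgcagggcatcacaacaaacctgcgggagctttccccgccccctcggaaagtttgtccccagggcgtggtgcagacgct

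ATTGG or CCAAT, searched on both strands, stood once in each Cyp4f window, with its first base 76, 50 and 78 bases before the start of Cyp4f13, Cyp4f14 and Cyp4f15, and not in the Cyp4v3 window. Of 27025 RefSeq mouse promoters, 25.3% held it in the same 150 bases. The longest run common to all 3 Cyp4f windows was GGATTGG, of 7 bases. TTCNNNGAA, the letters of the STAT motif, were in the Cyp4f13 window alone among the 4 (4.17% of all promoters), and AGGTCA or TGACCT, the letters of a nuclear receptor half-site, were in none of the 4 (8.49% of all promoters). These matches are descriptions of letters, and no binding was measured here.

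Cyp4f13, a fatty acid hydroxylase of the leukotriene-handling subfamily, was highest in the same animals as Cyp4a12a. Its ratios were 1.01, 0.924, 0.898 and 1.57 in txnrd1 cond/+ livers and 0.974, 1.03, 0.928 and 1.76 in txnrd1-/- livers (1418767_at). Animals 82 and 81 stood 1.56-fold and 1.71-fold above the next liver of their own genotype, and the other 6 lay within 0.898 to 1.03. The means were 1.10 ± 0.316 and 1.17 ± 0.393 (SD, n = 4 each), with a log2 fold change of 0.08 ± 0.24 (SE; 95% interval 0.726-fold to 1.54-fold).

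Cyp4f14, which omega-hydroxylates and so inactivates leukotrienes in liver, was the steadiest member. Its ratios were 1.06, 0.963, 0.949 and 1.04 in txnrd1 cond/+ livers and 1.08, 0.973, 0.927 and 1.12 in txnrd1-/- livers (1419559_at). No animal stood apart, and by the standard deviation of its log2 ratios it ranked 42594 of 45037 probe sets. The means were 1.00 ± 0.0549 and 1.03 ± 0.0923 (SD, n = 4 each), and the 95% interval of its fold change, 0.859-fold to 1.22-fold, was the narrowest of the members.

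Cyp4f15, a further liver Cyp4f enzyme, had ratios of 0.977, 0.835, 1.06 and 1.43 in txnrd1 cond/+ livers and 0.940, 1.02, 0.761 and 1.15 in txnrd1-/- livers (1449316_at). Animals 82 and 81 were again the highest, although animal 81 was only 1.08-fold above animal 80. The means were 1.08 ± 0.254 and 0.967 ± 0.162 (SD, n = 4 each), with a log2 fold change of -0.14 ± 0.19 (SE; 95% interval 0.679-fold to 1.21-fold).

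Cyp4v3, the counterpart of the human fatty acid hydroxylase gene altered in Bietti crystalline dystrophy, had ratios of 0.991, 1.00, 0.659 and 2.21 against 0.940, 1.17, 0.979 and 1.33 in its first probe set (1417070_at). In its second they were 0.960, 1.01, 0.546 and 1.67 against 0.984, 1.09, 0.828 and 1.15 (1417071_s_at). Both probe sets put animal 82 highest, animal 81 next and animal 80 lowest. The means were 1.22 ± 0.683 and 1.10 ± 0.181 for the first and 1.05 ± 0.466 and 1.01 ± 0.142 for the second (SD, n = 4 each). The 95% interval of the fold change was 0.612-fold to 1.62-fold for the first and 0.666-fold to 1.62-fold for the second.

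In all, animals 81 and 82 were the highest pair in 5 of the 8 member probe sets (62.5%, against 4.24% of all probe sets) and the lowest pair in 1 (12.5%, against 4.96%). The pair was picked after seeing Cyp4a12a, which is among the 5, and Cyp4v3 is counted there by each of its probe sets. These shares are therefore a description with no test. The labels' animal numbers run from 69 to 73 and from 80 to 82, with both genotypes in each run, and the meaning of the runs was not stated in any source used. Within 69 to 73 the log2 difference between genotypes was -0.49 for Cyp4a12a, -0.16 for Cyp4a14 and 0.02 for Cyp4f13. Within 80 to 82, where only animal 81 is txnrd1-/-, it was 3.64, -0.83 and 0.57. For Cyp4a12a the txnrd1 cond/+ livers of that run were far apart, at 0.218 in animal 80 and 24.0 in animal 82, against 28.5 in animal 81. Whether the genotype difference varies with the run was not tested. With the run as a covariate in limma they were 0.99, -0.40 and 0.21, each with an adjusted p of 1.00. Values did not overlap between the runs for the shared Cyp4a10 and Cyp4a31 probe set, lower in the second run, and for Cyp4f15, higher there. With the covariate their log2 fold changes were -0.15 ± 0.13 and -0.04 ± 0.15 (SE), against 0.02 ± 0.24 and -0.14 ± 0.19 without it. The share of all probe sets without overlap between the runs was not counted.

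The rest of the Cyp4 family gave no call either. Of 12 other Cyp4 genes listed, 6 had a probe set of their own, 0 were called, and their median log2 fold change was 0.00, the same as over all 18193 genes (15 of which, 0.0824%, were called). The gene values furthest from 0 were -0.24 ± 0.41 for Cyp4a31, 0.20 ± 0.10 for Cyp4f16 and 0.18 ± 0.14 for Cyp4x1 (SE). One Cyp4f16 probe set did not overlap between the genotypes, at 0.663 to 0.931 in txnrd1 cond/+ and 1.06 to 1.13 in txnrd1-/- livers (1430173_x_at, log2 fold change 0.37 ± 0.13, limma p 0.0192 and adjusted p 1.00). The second Cyp4f16 probe set had a log2 fold change of 0.03 ± 0.11 (1417277_at). A probe set shared by Cyp4f16 and Cyp4f37 had 0.05 ± 0.24 (1430172_a_at). The difference between these probe sets was not tested.

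The measured genes for proteins around the hydroxylases gave no call by genotype. P450 enzymes take their electrons from P450 reductase and cytochrome b5. Of 5 such genes, 4 were measured (Por was not read by a probe set of its own) and 0 were called, with a median log2 fold change of 0.10 and values of 0.17 ± 0.10 for Cyb5a, 0.11 ± 0.12 for Cyb5b and 0.09 ± 0.17 for Cyb5r1 (SE). Downstream, 0 of 14 measured genes that oxidise or shorten omega-hydroxylated acids were called, with a median of 0.05. Among them were Adh4, an alcohol dehydrogenase, at 0.39 ± 0.38, Crot, a peroxisomal carnitine octanoyltransferase, at 0.24 ± 0.18, and Aldh3a2, the fatty aldehyde dehydrogenase, at 0.24 ± 0.11 (SE).

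PPARα and its partners, which control Cyp4a10 and Cyp4a14, likewise gave 0 calls among 10 measured genes, with a median of 0.03. Ppara itself had ratios of 1.05, 1.05, 1.03 and 0.981 against 1.05, 1.08, 0.963 and 0.803 and a log2 fold change of -0.09 ± 0.11 (SE), so it was lowest in animal 81. Among its partners, the coactivator gene Ppargc1a was at 0.30 ± 0.41, Nr1d1, a clock repressor, at 0.19 ± 0.31 and the coactivator gene Ncoa1 at -0.18 ± 0.09 (SE), each with a limma adjusted p of 1.00. Of 28 measured PPARα targets outside Cyp4, 0 were called, with a median of 0.02. The lowest p-values of that list were those of Fitm1, a lipid droplet protein at 2.71-fold (limma p 0.000206, adjusted p 0.163), and Cd36, a fatty acid carrier at 2.31-fold (limma p 0.000499, adjusted p 0.313), neither of which passed. Vnn1, a pantetheinase, was at 1.67-fold with an adjusted p of 1.00.

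Of 17 measured genes for eicosanoid and leukotriene handling, which share substrates with the Cyp4f enzymes, 0 were called and the median was 0.03. Ephx1, the microsomal epoxide hydrolase, was at 2.11-fold without overlap between the genotypes (0.487 to 0.812 against 1.18 to 1.84) and did not pass the adjusted test (adjusted p 0.161 in limma). Ptgr1, a prostaglandin reductase, was at 1.33-fold and Cyp2j5, an arachidonic acid epoxygenase, at 1.22-fold, both with an adjusted p of 1.00. Animals 81 and 82 were the highest pair in 5 of these 17 genes and in 4.80% of all genes. Some margins were small, as for Ptges, at 1.106 in both animals against 1.098 in animal 72. The same pair was highest in 3 of 10 PPARα partners, 0 of 28 PPARα targets and 0 of 14 omega oxidation genes. It was picked after seeing Cyp4a12a, so these counts are descriptions with no test.

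Because Cyp4a12a is a male-biased gene, it was set beside 14 measured male-biased and 13 measured female-biased liver genes. By genotype 0 of either list were called, with median log2 fold changes of 0.01 and 0.21. Leaving out 1 animal moved these medians between -0.32 and 0.57 for the male-biased and between 0.04 and 0.50 for the female-biased genes. Cyp7b1, an oxysterol hydroxylase, had the highest fold of the male-biased list at 1.67-fold, followed by Cyp2d9 at 1.46-fold and the urinary protein gene Mup3 at 1.39-fold. In the female-biased list 10 genes had a value above 0 and 3 below. Its highest were Cyp2b13, a P450, at 3.64-fold (limma p 0.0102), Sult3a1, a sulfotransferase, at 2.91-fold (limma p 0.0807), Cyp2b9 at 2.65-fold (limma p 0.133) and Cyp2b10 at 1.63-fold (limma p 0.0125), each with an adjusted p of 1.00. The 3 below 0 were Cyp3a16 at -0.19 ± 0.96, Cyp17a1 at -0.18 ± 0.76 and Cux2 at -0.17 ± 0.25 (log2, SE). A probe set shared by Cyp2a4 and Cyp2a5 was called at 2.74-fold (adjusted p 0.0319 in limma). The study had reported Cyp2a4, Cyp2b10 and Cyp2b13 as induced on these same arrays, so their values are not independent evidence of a direction.

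By animal, the male-biased median was highest and the female-biased median lowest in the livers highest in Cyp4a12a. The median log2 ratio of the male-biased genes was -0.07, 0.01, -1.15 and 0.97 in txnrd1 cond/+ livers and -0.04, -0.14, -0.02 and 0.58 in txnrd1-/- livers, highest in animals 82 and 81 and lowest in animal 80. That of the female-biased genes was 0.36, -0.33, 0.32 and -1.24 against 0.29, 0.18, -0.06 and -0.43, lowest in animals 82 and 81. Animals 81 and 82 were the highest pair in 8 of the 14 male-biased genes (57.1%, against 4.80% of all genes) and the lowest pair in 4 of the 13 female-biased genes (4.64% of all genes). The rest of each list did not have this order, for example Cyp2b10, at 1.35 in animal 81 and 0.593 in animal 82. The pair was picked after seeing Cyp4a12a, itself male-biased, and the lists were chosen with earlier results of these data known. The shares of both lists are therefore descriptions with no test. Elovl3 had ratios of 0.774, 1.00, 0.249 and 12.8 against 0.988, 1.04, 0.960 and 8.62, and Hao2, a female-biased hydroxyacid oxidase, reached its lowest values of 0.0334 and 0.193 in animals 82 and 81. Hsd3b5, a male-biased steroid dehydrogenase, was high in animal 82 (5.05), lowest in animal 80 (0.050) and 1.47 in animal 81. In whole liver, a change in the number of cells of a type and a change in RNA per cell cannot be told apart.

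**Figure D4:**
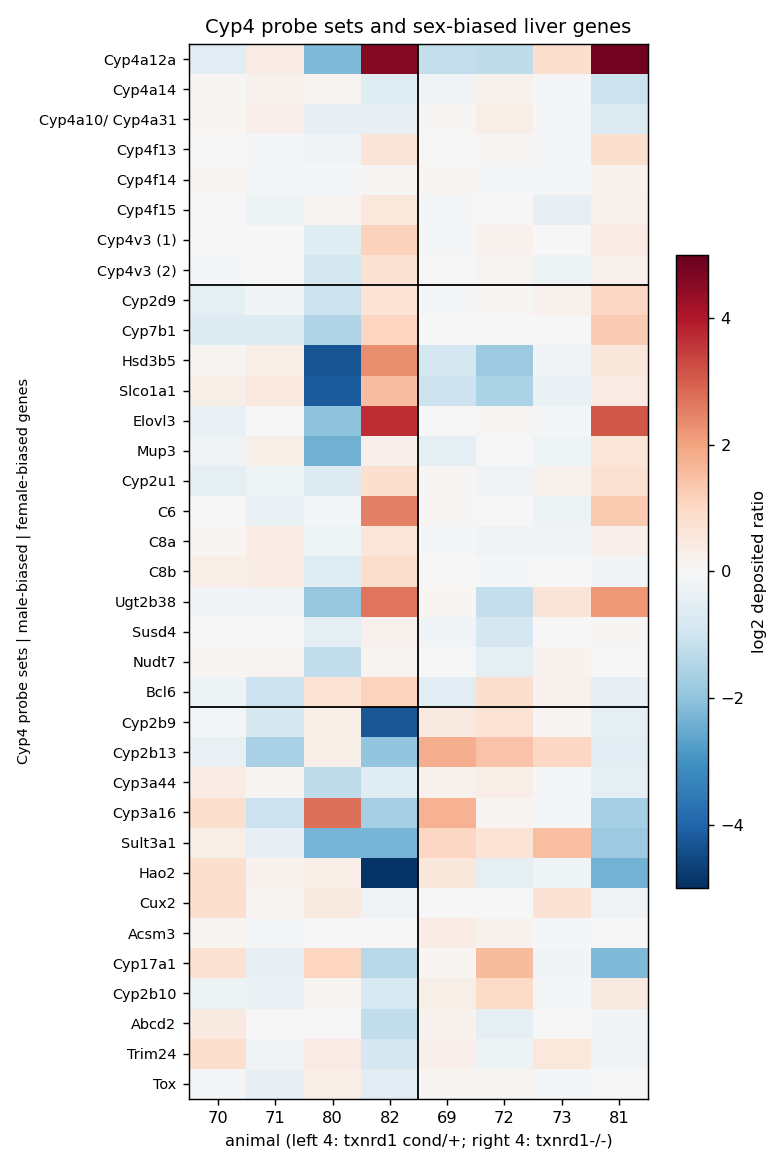
Colour gives the log2 deposited ratio of the 8 Cyp4 probe sets (top block), 14 male-biased genes (middle) and 13 female-biased genes (bottom) in each liver, with txnrd1 cond/+ animals to the left of the line and txnrd1-/- animals to the right. Cyp4a12a, Elovl3 and Ugt2b38 are red in animals 82 and 81, Hao2 is blue in both, and animal 80 is blue for Cyp4a12a and most male-biased genes.

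Growth hormone and sex steroid signalling, which set sex-biased transcription in liver, gave 0 calls among 9 measured genes and a median log2 fold change of -0.01. Igfals, the acid-labile subunit of the IGF complex, was at -0.29 ± 0.14, Cish, a cytokine feedback inhibitor, at 0.28 ± 0.46 and Stat5a at -0.17 ± 0.16 (SE). The ratios of Cish were 1.20, 1.59, 0.624 and 0.633 against 1.26, 0.796, 0.619 and 2.64, high in animal 81 and low in animal 82.

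The genes whose log2 ratios most resembled each member over the 8 animals were sought among 1814 genes outside the Cyp4 family with a standard deviation in the upper 10%. For Cyp4a12a they were Nox4, an NADPH oxidase (Pearson r 0.96, and 0.72 in the 6 animals other than 81 and 82), Elovl3 (0.95 and 0.65) and Ugt2b38, a glucuronosyltransferase (0.95 and 0.83). For Cyp4a14 they were Sult1a1, a phenol sulfotransferase (0.96 and 0.50), 9030619P08Rik (0.94 and 0.15) and Slco1a4, an organic anion carrier (0.93 and 0.29), so in the other 6 animals the coefficients were lower for Cyp4a14 than for Cyp4a12a. For Cyp4f13 they were Acp5 (0.98 and 0.77), Nox4 (0.98 and -0.06) and Csad, a taurine synthesis enzyme (0.97 and 0.72).

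The remaining members resembled other genes. The shared Cyp4a10 and Cyp4a31 probe set was most like Uqcrb, a subunit of respiratory complex III (0.97 and 0.96), Rps29, a ribosomal protein (0.95 and 0.86 in the other 6 animals), and Ndufa2, a subunit of complex I (0.94 and 0.89). Cyp4f14 was most like Fst (0.95), Flcn (0.93) and Acsf2 (0.92), Cyp4f15 most like Rnd1 (0.91), Gse1 (0.91) and the complement gene C6 (0.88), and Cyp4v3 most like Klkb1, the plasma prekallikrein gene (0.93), Irf7 (0.93) and Hsd3b2 (0.92). All values of a pair come from the same 8 arrays and share their normalization, and these coefficients are descriptions with no test.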

How the data were processed

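Liver RNA of 8 mice, sedimented through CsCl, was hybridised singly to Affymetrix whole-genome mouse expression arrays. The authors normalized the arrays (RMA, per the submitters' processing notes) and analysed them in GeneSpring, and the deposited values are linear ratios of each probe set to its own middle over the arrays (98.95% of probe sets had a median within 5% of 1), so signal levels and the authors' filter on low signal could not be used here. After 64 control probe sets were left out, log2 of the deposited ratio of 45037 probe sets was tested with limma 3.58.1 (R 4.3.3; lmFit, eBayes, 2-sided, Benjamini-Hochberg over all probe sets), with 4 animals per genotype and no covariate. The 5 empty values stayed missing. The number of arrays limits the precision. Nothing states that RNA was pooled, and each array is 1 animal. Calls needed an adjusted p of at most 0.05 and 1.5-fold. Symbols came from the platform annotation, updated by Entrez identifier through RefSeq (34945 probe sets with 1 symbol, 932 with several, 9160 with none). Gene values are means over probe sets with 1 symbol (18193 genes). The test was checked on simulated data. The exact permutation test used all 70 divisions of the animals. Named list genes are those called, those with an unadjusted p of at most 0.05, the 3 of largest change per list, and Ppara and Por. The members and the 15 gene lists and 7 marker lists were chosen with earlier results of these data known, and the likeness search kept the 3 genes of highest Pearson r. Alternatives covered centring, quantile normalization, robust fitting, array weights, unequal variances, a filter on the standard deviation, probe set choice, the run of animal numbers and leaving out each animal.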

Additional observations from a re-analysis of the deposited data

Results flagged for a closer look

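In 5 cases a liver lay far from the other 3 of its genotype, judged by its gap to the nearest liver over the whole range of the group (past the 95% limit of Dixon's ratio, which chance passes in about 5% of groups, and 16 groups of member probe sets were tested on each scale). On the ratio scale, Cyp4a12a in animal 82 had a share of 0.954 among txnrd1 cond/+ livers and in animal 81 a share of 0.954 among txnrd1-/- livers. Cyp4f13 in the same animals had shares of 0.835 and 0.878 on the ratio scale. On the log2 scale, Cyp4f13 passed only among txnrd1-/- livers, with 0.838 for animal 81, and Cyp4a12a passed in neither genotype, since its lower livers also lay far apart there. The 5 cases come from 2 animals and 2 probe sets.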

How the results depend on the processing

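No paired analysis was possible because the genotypes share no animal number. All 8 member probe sets kept an adjusted p of 1.00 in limma and stayed uncalled under every alternative that gave a value (Cyp4f14 gave none under the filter on standard deviation, nor did the shared Cyp4a10 and Cyp4a31 probe set with probe sets of 1 symbol only). Of the alternatives other than leaving out 1 animal, 5 change the estimate itself, and of the 40 member values they gave 7 changed sign. Quantile normalization gave log2 fold changes of -0.167 for Cyp4a12a, -0.0578 for the shared Cyp4a10 and Cyp4a31 probe set and -0.0389 for the mean of the Cyp4v3 probe sets. Array weights gave -0.0641 for the shared probe set and 0.0666 for the first Cyp4v3 probe set, and the run of animal numbers as a covariate gave -0.149 and 0.0748. The more variable Cyp4v3 probe set alone gave -0.00490. The cause of each change of sign was not tested. Leaving out 1 animal moved Cyp4a12a from -1.12 to 1.57, Cyp4a14 from -0.413 to 0.0291, the shared probe set from -0.123 to 0.220, Cyp4f13 from -0.133 to 0.263, Cyp4f14 from -0.0128 to 0.0799, Cyp4f15 from -0.255 to 0.00402, and Cyp4v3 from -0.250 to 0.332, from -0.221 to 0.317 and as a gene from -0.236 to 0.325.

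Leaving out animals 81 and 82 together, chosen after seeing the data, gave 0.238 for the first Cyp4v3 probe set, -0.0183 for Cyb5b, -0.0391 for Cyb5r1, -0.0845 for Ppargc1a, -0.313 for Cish and -0.195 for Fgf21, and medians of -0.0287 for electron supply, -0.152 for acute phase genes and 0.823 for Nrf2 targets, of which 4 were then called. Keeping the more variable part of the genes by standard deviation moved medians to 0.167 (PPARα partners), 0.121 (omega oxidation), 0.242 (eicosanoids), -0.265 (pericentral), 0.218 (periportal) and 0.00929 (acute phase), and called 2 PPARα targets, 1 eicosanoid gene and 1 female-biased gene. Quantile normalization and array weights called 1 PPARα target each. The run covariate gave 0.0691 for other Cyp4 genes, and the most variable probe set 1.33 for Nrf2 targets, of which 0 were called with unequal variances. Over all probe sets, calls went from 12 to 0 with unequal variances, 18 higher and 1 lower with array weights, 54 higher and 5 lower with the filter, and 3 to 8 without 1 animal. Without 1 animal the medians ran from -0.0416 to 0.101 (other Cyp4), -0.0388 to 0.136 (PPARα targets, 0 to 1 called), -0.136 to 0.0118 (acute phase), -0.319 to 0.567 (male-biased), 0.0392 to 0.504 (female-biased), -0.305 to -0.00747 (fasting) and 0.811 to 1.24 (Nrf2 targets, 3 to 8 called). Listed genes that turned ran from -0.0595 to 0.605 (Adh4), -0.613 to 0.214 (Ass1), -0.127 to 0.571 (Cish), -0.203 to 0.448 (Dbp), -0.205 to 0.672 (Fgf21), -0.152 to 0.746 (Mup3), -0.0607 to 0.403 (Nr1d1), -0.138 to 0.00351 (Ppara) and -0.161 to 0.523 (Ppargc1a). The depth of signal over background is unknown, since the files hold ratios.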

Other observations

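Further gene lists and the marker lists gave these values by genotype. Of 12 measured genes of the fasting and insulin response 0 were called in limma, with a median log2 fold change of -0.18. Srebf1, the regulator of fatty acid synthesis, was at -0.64 ± 0.13 (SE; limma p 0.000605, adjusted p 0.355), with 0.780 to 0.913 in txnrd1-/- and 1.08 to 1.57 in txnrd1 cond/+ livers, and Angptl8, a feeding-induced inhibitor of lipase, at -1.12 ± 0.38 (SE; adjusted p 1.00). Fgf21, a fasting hormone under PPARα, had ratios of 1.41, 1.03, 0.777 and 1.07 against 0.957, 0.918, 0.857 and 5.32, high in animal 81 and not in animal 82. Of 16 clock genes 0 were called, with a median of 0.00, and Cry1 was at -0.58 ± 0.29, Per2 at -0.36 ± 0.18 and Dbp at 0.25 ± 0.39 (SE).

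Of 11 pericentral and 10 periportal hepatocyte genes 0 were called, with medians of -0.06 and 0.05. The ornithine aminotransferase gene Oat was at 0.35 ± 0.11 (limma p 0.0132) and Aldh1b1 at 0.49 ± 0.21 (limma p 0.0403), both with an adjusted p of 1.00. Cyp2c37 was at -0.35 ± 0.27, Glul at -0.28 ± 0.16, Cyp2f2 at 0.37 ± 0.18 and the urea cycle gene Ass1 at -0.33 ± 0.53, with Ass1 lowest in animals 81 (0.247) and 82 (0.536). Of 16 acute phase genes 0 were called, with a median of -0.11, and Lcn2 was at 0.70 ± 0.48, Orm1 at 0.44 ± 0.40 and Saa3 at 0.33 ± 0.27 (SE). The marker lists of 8 hepatocyte, 6 Kupffer cell, 6 endothelial, 6 stellate, 4 cholangiocyte, 5 kidney tubule and 2 adipocyte genes held 0 calls, with medians of -0.05, -0.04, -0.14, -0.14, -0.06, -0.03 and -0.03.

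Of 19 measured Nrf2 targets 9 were called higher in txnrd1-/- livers and 0 lower, with a median of 1.07. The called genes were Nqo1, Cbr3, Gsta2, Gsta4, Gstm3, Abcc3, Abcc4, Mgst3 and Ugdh, led by Cbr3 at 51.7-fold and Gsta2 at 14.3-fold. Gstm1, Gclc, Gclm, Srxn1, Tkt and Gpx2 had an unadjusted p under 0.05 only, at 1.43-fold (Tkt) to 2.11-fold (Gpx2). Several of these genes were picked out by the study on these same livers, so the list is not independent evidence of its direction. In 81, the animal with the highest Cyp4a12a, the median log2 ratio of the list was 1.07, against 0.36, 0.44 and 0.38 in the other txnrd1-/- livers, while animal 82 at -0.64 was among the 4 txnrd1 cond/+ livers at -0.68 to -0.56.

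Among probe sets lowest in animals 81 and 82, Slc22a27, an organic anion transporter gene, had ratios of 0.0919 in animal 82 and 0.0742 in animal 81 against 0.672 to 1.96 in the other 6. Cyp7a1, the rate-limiting enzyme of bile acid synthesis, had the gene value most opposite to Cyp4f13 (Pearson r -0.98, and -0.56 in the other 6 animals), at 1.23, 1.05, 1.71 and 0.186 in txnrd1 cond/+ and 1.01, 0.905, 1.01 and 0.140 in txnrd1-/- livers. Cyp4v3 was most opposite to Mcm3, a replication helicase subunit (-0.99, and -0.99 in the other 6), which was highest in animal 80 (1.76) and lowest in animal 82 (0.587). These genes were picked for their pattern, so the values are descriptions.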
